A study of Mus musculus with 6 samples.

Results

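The Hox genes and the limb identity factors of mouse bone were compared between wild-type mice and mice lacking the miR-29cb2 cluster. Members were taken by name from a table of 54532 genes: 39 protein-coding Hox genes and the transcription factors Tbx4, Tbx5, Pitx1 and Shox2, 43 genes in all. The study sequenced RNA of bone from female C57BL/6J mice aged 16 weeks, in 3 libraries of wild-type mice and 3 libraries of mice labelled MIR29cb2-/-, a genotype without the genes of miR-29c and miR-29b-2. The labels do not state which bone was taken, if marrow was flushed out, how the allele was made or whether every library had an animal of its own. The p-values below therefore measure only how far these libraries spread, and part of that spread may be technical.

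Hox genes encode homeodomain transcription factors that lie in 4 clusters, and the order of genes along a cluster follows the order of their expression along the body axis and, in Hoxa and Hoxd, along the growing limb. Genes of the same number in different clusters form a paralog group. Groups 1 to 3 act in the hindbrain and neck, the middle groups in the trunk, and groups 9 to 13 in the lumbar to tail region and in the limb. Connective tissue and bone cells keep much of this positional code in adult life, and blood stem and progenitor cells use a Hox set of their own, in which Hoxa9, Hoxa10, Hoxa5, Hoxa7 and Hoxb4 are the best known. Among the other members, Tbx5 marks the forelimb, Pitx1 and Tbx4 mark the hindlimb, and Shox2 drives growth of the upper limb segment and is also present in limb mesenchyme and the sinus node.

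The microRNAs of the deleted cluster are shown first, because the match to their seed is how they find messenger RNAs. Both were read from the RefSeq table (GRCm38.p6), 5′ to 3′, with the seed (bases 2 to 8) in capitals.
mmu-miR-29b-3p: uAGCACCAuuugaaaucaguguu
mmu-miR-29c-3p: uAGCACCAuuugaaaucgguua
They lie on the plus strand of chromosome 1, from 195037091 to 195037113 and from 195037600 to 195037621, and share the seed AGCACCA. The matching site TGGTGCT, searched on the transcript strand of annotated 3′ UTRs (GENCODE M21), was found in 1 of the 43 members, or 2.33%. The same letters occurred in 1896 of the genes with a mean level of at least 1 FPKM and an annotated 3′ UTR, or 16.3%. The member with the site was Hoxc13, on the plus strand of chromosome 15 from 102928591 to 102928597. Its site is printed with its flanks, the match in capitals.
Hoxc13: aaaagccaactTGGTGCTgtgggggccccc
Hoxc13, which acts in hair and nail, had 5 reads over the 3 wild-type libraries and 2 over the 3 knockout libraries, so its level could not be compared at this depth. A letter match is a description of the sequence and not a shown target.

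The values are FPKM (fragments per kilobase of exon, scaled to library size) and rest on 16727111 to 20118034 recovered reads per library. The libraries of wild-type replicate 2 and of knockout replicate 1 differed from the rest, with FPKM totals of 489576 and 487102 against 355787 to 404994 in the other 4 libraries. Results that lead the text are therefore also given without both. The host transcript of the deleted cluster, A330023F24Rik, had a mean of 0.162 FPKM in wild type and 3.28 in knockout, and Mir29b-2 and Mir29c were listed at 0 in all 6 libraries. A mature microRNA is shorter than the fragments of such libraries, so those zeros do not check the deletion.

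Member RNA in wild-type bone was led by Shox2 and by genes of paralog group 10. The mean wild-type level was 7.08 ± 2.34 FPKM (SD, n = 3) for Shox2, 4.60 ± 1.58 for Hoxc10, 3.91 ± 0.860 for Hoxa10 and 2.98 ± 0.327 for Hoxb4. Below these came Hoxa7 at 2.21 ± 0.357, Hoxd8 at 2.06 ± 0.440, Hoxc9 at 1.76 ± 0.808, Hoxa9 at 1.68 ± 0.0311, Hoxa5 at 1.66 ± 0.674 and Pitx1 at 1.59 ± 0.511 FPKM. From Hoxa7 downward, and between Hoxc10 and Hoxa10, neighbours in this order differed by less than the larger of their SDs. Of the 43 members, 39 had a value above 0 in at least 1 library, 29 had a mean of at least 0.1 FPKM over the 6 libraries, and 10 reached the mean of at least 1 FPKM that was required for the test.

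**Figure D1:**
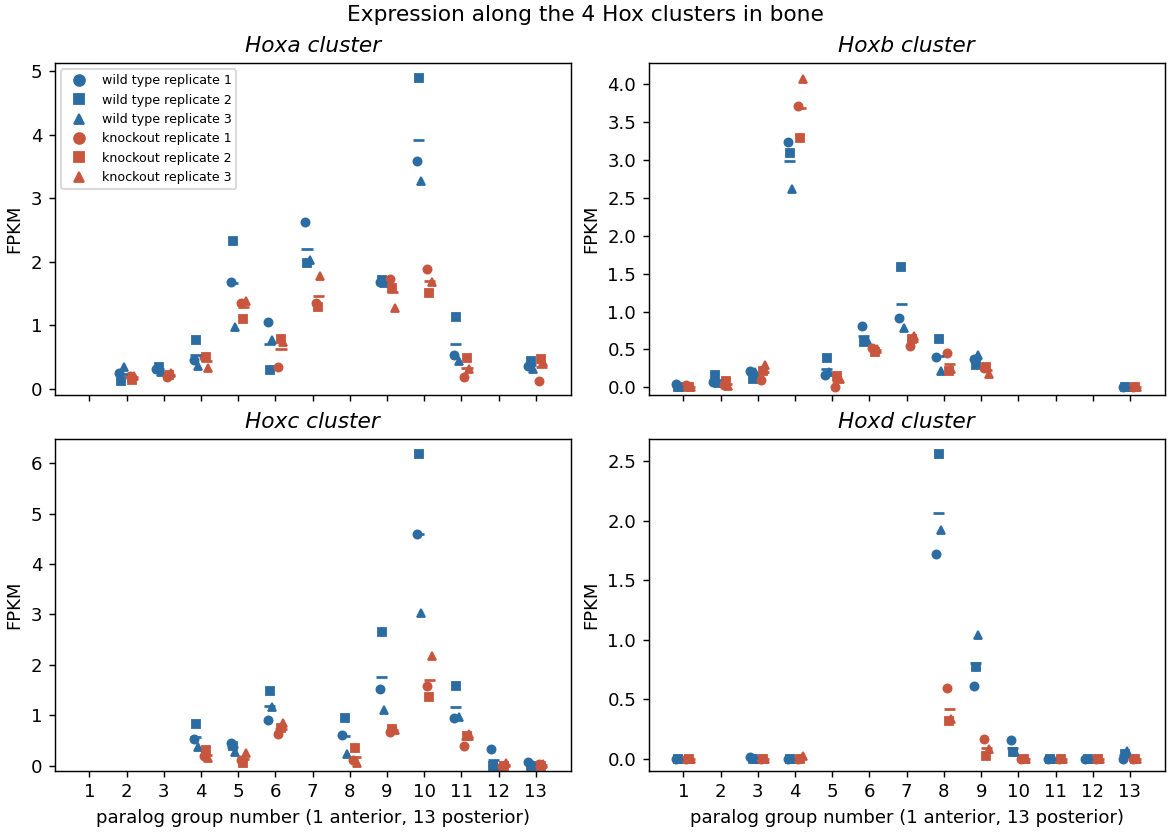
FPKM of the Hox genes by cluster (panels, each with its own scale) and paralog group (horizontal axis, 1 at the anterior end to 13 at the posterior end), 1 point per library and a dash at each group's mean, with 1 gene not shown. In wild type Hoxc10 and Hoxa10 have the highest means, at 4.60 and 3.91 FPKM, and in the Hoxd panel the knockout values of Hoxd8 and Hoxd9 lie below all wild-type values.

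The hindlimb and forelimb factors were at unlike levels. Pitx1 was present in all 6 libraries. Tbx4, its partner in hindlimb identity, was at 0.128, 0.211 and 0.0652 FPKM in wild-type replicates 1, 2 and 3 and at 0.0177, 0.0169 and 0.119 in the knockout replicates, from 27 and 9 reads. The groups overlapped, since knockout replicate 3 lay above wild-type replicate 3. Tbx5, the forelimb factor, was at 0.0831 FPKM in wild-type replicate 1, from 8 reads, and listed at 0 in the other 5 libraries. Against the 3 reads over the group that a count of 0 allows, Tbx5 was 2.35-fold lower in the knockout. This ratio takes the wild-type reads as exact, rests on 1 library and covers counting error of the knockout only. Among the genes of the distal limb and tail, Hoxa13 had a mean of 0.368 FPKM in wild type and 0.336 in knockout with overlapping groups. Hoxd13 had 5 wild-type reads, with 0 in replicate 1, and 0 knockout reads, too few for a comparison. Hoxb13, Hoxd11 and Hoxd12 were listed at 0 in all 6 libraries. Hoxd1, at the other end of its cluster, was also at 0 throughout.

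Compared with wild type, knockout bone held less RNA of Shox2, Hoxa10 and Hoxd8. Of the members best known from blood Hoxa10 fell, and Hoxa7, Hoxa5, Hoxa9 and Hoxb4 did not pass the test. Of the 10 members tested, 3 fell and 0 rose with limma over all 13619 genes (Benjamini-Hochberg adjusted p under 0.05). Of all genes tested 3.82% were called lower and 1.34% higher. At an unadjusted p under 0.05, limma gave 7 members lower and 0 higher, where 11.7% of all genes were lower and 8.91% higher, and limma's voom on the recovered reads gave 0 higher members past the adjusted threshold. In RNA of bone tissue, fewer cells of a type and less RNA per cell cannot be told apart.

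Shox2 had the highest level of all members in wild type, and Hoxb4, at 3.69 FPKM, in knockout. It was at 8.18, 8.67 and 4.40 FPKM in wild-type replicates 1, 2 and 3 and at 2.17, 2.64 and 1.34 in the knockout replicates. All 3 knockout libraries lay below all wild-type libraries, the nearest being wild-type replicate 3. The mean fell from 7.08 ± 2.34 to 2.05 ± 0.654 FPKM (SD, n = 3), on the log2(FPKM + 1) scale by 1.38 with an SE of 0.265 (limma adjusted p = 0.0357). Without wild-type replicate 2 and knockout replicate 1 the log2 difference was -1.27 and the limma adjusted p 0.113. The call was also lost when any single library other than wild-type replicate 3 was left out (limma adjusted p of 0.0809 to 0.122). Pitx1 was at 1.63, 2.08 and 1.06 FPKM in wild type and at 0.750, 0.843 and 0.566 in knockout. Its groups did not overlap either, but the log2 difference of -0.58 did not pass the test (limma adjusted p = 0.133).

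Hoxa10, a regulator of lumbar and upper limb patterning that is also active in blood progenitors, was at 3.58, 4.89 and 3.27 FPKM in wild type and at 1.88, 1.51 and 1.68 in knockout. The knockout libraries lay close together and below every wild-type library. The mean fell from 3.91 ± 0.860 to 1.69 ± 0.186 FPKM (SD, n = 3), by 0.86 on the log2 scale with an SE of 0.155 (limma adjusted p = 0.0323), and without both libraries that stood apart the log2 difference was -0.77 (limma adjusted p = 0.0578). Leaving out any single library other than wild-type replicate 3 also ended the call (limma adjusted p of 0.0570 to 0.130). Its paralog Hoxc10 was at 4.60, 6.17 and 3.02 FPKM in wild type and at 1.58, 1.35 and 2.18 in knockout, again without overlap. The Hoxc10 log2 difference of -1.02 (95% interval -1.57 to -0.48) missed the threshold, with a limma adjusted p of 0.0544. It passed without wild-type replicate 3 (limma adjusted p = 0.0402), lay at an adjusted p of 0.0810 to 0.182 in limma when any other single library was left out, and without both libraries that stood apart was at -0.79 (limma adjusted p = 0.135). Hoxc9, of the neighbouring paralog group, was at 1.52, 2.66 and 1.10 FPKM in wild type and at 0.670, 0.733 and 0.713 in knockout. The Hoxc9 groups did not overlap, and the log2 difference of -0.65 did not pass (limma adjusted p = 0.145). These genes come from different clusters on chromosomes 6 and 15, and their lowest wild-type value was in replicate 3 and their highest in replicate 2.

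**Figure D2:**
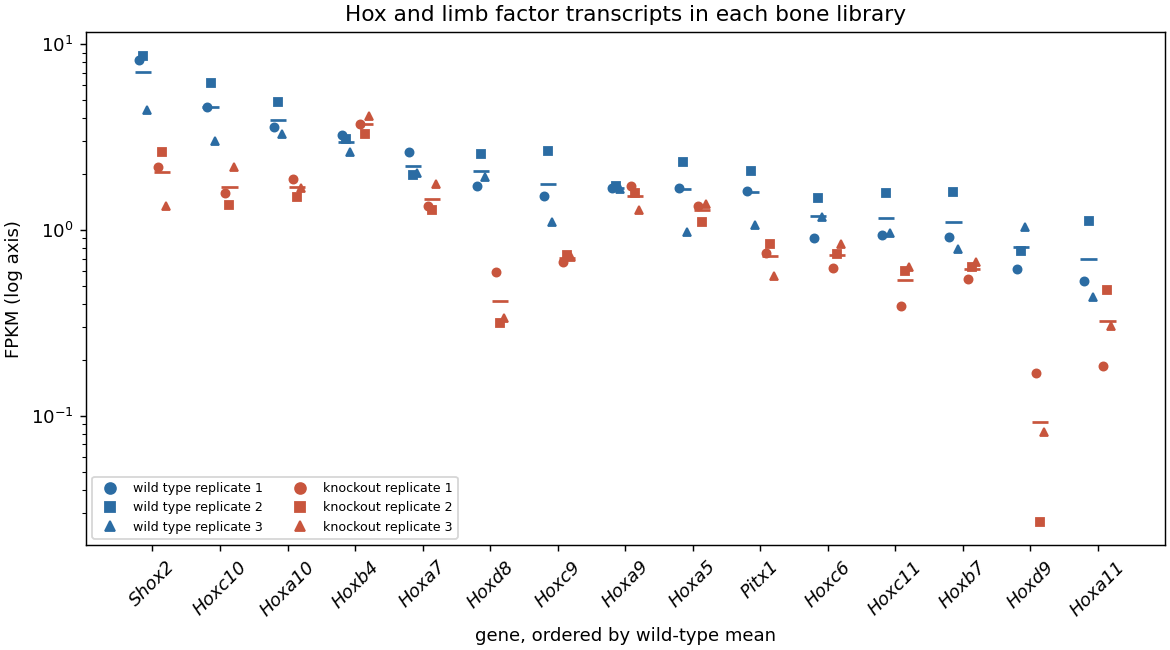
FPKM (log axis) in each library for 15 members, with a dash at each group's mean. They are the tested members and Hoxd9, Hoxc11, Hoxa11, Hoxb7 and Hoxc6. For Shox2, Hoxa10, Hoxc10 and Hoxd8 the knockout points lie below all wild-type points, and for Hoxb4 they lie above, at 3.29 to 4.08 against 2.61 to 3.24 FPKM.

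In the Hoxd cluster (chromosome 2, 74668310 to 74765142) the RNA that could be measured came almost wholly from the neighbours Hoxd8 and Hoxd9, which act in trunk and early limb patterning. Because these genes lie side by side and both had lower values in the knockout, their promoters are shown, from 250 bases before to 50 bases after the start in the RefSeq table (GRCm38.p6, plus strand), with each CG dinucleotide in capitals. The stretch of Hoxd8 is chr2:74704365-74704664, and that of Hoxd9 is chr2:74697513-74697812.
Hoxd8: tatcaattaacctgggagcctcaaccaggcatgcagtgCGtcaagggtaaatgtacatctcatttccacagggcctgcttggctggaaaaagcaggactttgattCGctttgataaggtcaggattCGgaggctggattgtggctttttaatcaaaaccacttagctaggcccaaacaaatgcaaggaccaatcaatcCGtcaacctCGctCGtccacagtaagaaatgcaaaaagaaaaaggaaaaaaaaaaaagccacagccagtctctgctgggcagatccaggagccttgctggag
Hoxd9: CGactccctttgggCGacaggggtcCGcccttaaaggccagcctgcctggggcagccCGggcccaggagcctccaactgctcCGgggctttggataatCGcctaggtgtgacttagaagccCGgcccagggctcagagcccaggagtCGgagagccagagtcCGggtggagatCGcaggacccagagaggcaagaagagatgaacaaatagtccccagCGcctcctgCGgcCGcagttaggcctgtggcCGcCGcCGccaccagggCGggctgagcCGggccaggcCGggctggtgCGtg
The Hoxd8 stretch holds 6 CG and that of Hoxd9 holds 20. Of the 43 members, 24 had a promoter in that table, 26 promoters in all, with a median of 13.5 CG against 7 over all 32851 promoters of this length. Of all promoters 94.6% hold at least 1 CG.

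Hoxd8 was at 1.72, 2.56 and 1.92 FPKM in wild type and at 0.594, 0.314 and 0.337 in knockout. The lowest wild-type library was far above the highest knockout library. The mean fell from 2.06 ± 0.440 to 0.415 ± 0.155 FPKM (SD, n = 3), from 329 to 58 reads, by 1.11 on the log2 scale with an SE of 0.167 (limma adjusted p = 0.0210). Without the libraries that stood apart its log2 difference was -1.09 and the limma adjusted p 0.0557. Leaving out replicate 1 or 2 of wild type, or 2 or 3 of knockout, gave a limma adjusted p of 0.0515 to 0.0874, and without knockout replicate 1 or wild-type replicate 3 Hoxd8 still passed. Hoxd9 lay under the level required for the test, at 0.614, 0.768 and 1.04 FPKM in wild type and at 0.169, 0.0269 and 0.0812 in knockout, from 99 and 10 reads. Its groups did not overlap, and a two-sided exact permutation test of the log2 difference of -0.72 gave p = 0.1, the smallest that 3 against 3 libraries allow. When genes with a mean of at least 0.1 FPKM were tested, Hoxd9 fell (limma adjusted p = 0.0378), Hoxa10 and Hoxd8 fell too and Shox2 did not pass (limma adjusted p = 0.0504). Under that rule 2.18% of 20827 genes were called lower. With limma's voom on recovered reads, over the genes with a mean of at least 10 reads, 5 members fell, Hoxa10, Hoxc10, Hoxd8, Hoxd9 and Shox2, where 5.98% of 15767 genes did. The next gene, Hoxd10, had 10 wild-type reads, in all 3 libraries, and 0 knockout reads. It was 2.94-fold lower against the 3 reads over the group that a count of 0 allows. This ratio takes the wild-type reads as exact. Hoxd3 and Hoxd4 share part of their annotated exon sequence and had mean levels under 0.01 FPKM.

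Of the members known from blood, Hoxb4 alone had all knockout libraries above all wild-type libraries. Hoxb4, which promotes self-renewal of blood stem cells when overexpressed, was at 3.24, 3.10 and 2.61 FPKM in wild type and at 3.71, 3.29 and 4.08 in knockout. The groups lay close to each other, and the log2 difference of 0.24 (95% interval -0.06 to 0.53) did not pass the test (limma adjusted p = 0.352). Hoxa9, a gene of blood stem cells and myeloid progenitors, was at 1.67, 1.72 and 1.66 FPKM in wild type and at 1.72, 1.59 and 1.27 in knockout. These groups overlapped, with a log2 difference of -0.09 (95% interval -0.40 to 0.22, limma adjusted p = 0.760). Hoxa5 was at 1.68, 2.32 and 0.974 FPKM in wild type and at 1.35, 1.10 and 1.39 in knockout. It overlapped as well, with a log2 difference of -0.19 (95% interval -0.68 to 0.30, limma adjusted p = 0.672). Hoxa7 was at 2.62, 1.98 and 2.02 FPKM in wild type and at 1.34, 1.28 and 1.77 in knockout. Its groups did not overlap and the log2 difference of -0.38 did not pass (limma adjusted p = 0.204). Of its exon sequence 20.4% is shared with the opposite-strand transcript Hoxaas3, and since no source states whether strand was used, reads of that overlap cannot be assigned. The intervals of Hoxb4, Hoxa9 and Hoxa5 leave room for changes in either direction, and log2(FPKM + 1) understates fold changes at these levels. By voom on genes with a mean of at least 10 reads, the 95% log2 interval of Hoxa5 was -1.12 to 0.51. Those of Hoxb4 and Hoxa9 were -0.12 to 0.73 and -0.57 to 0.27.

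**Figure D3:**
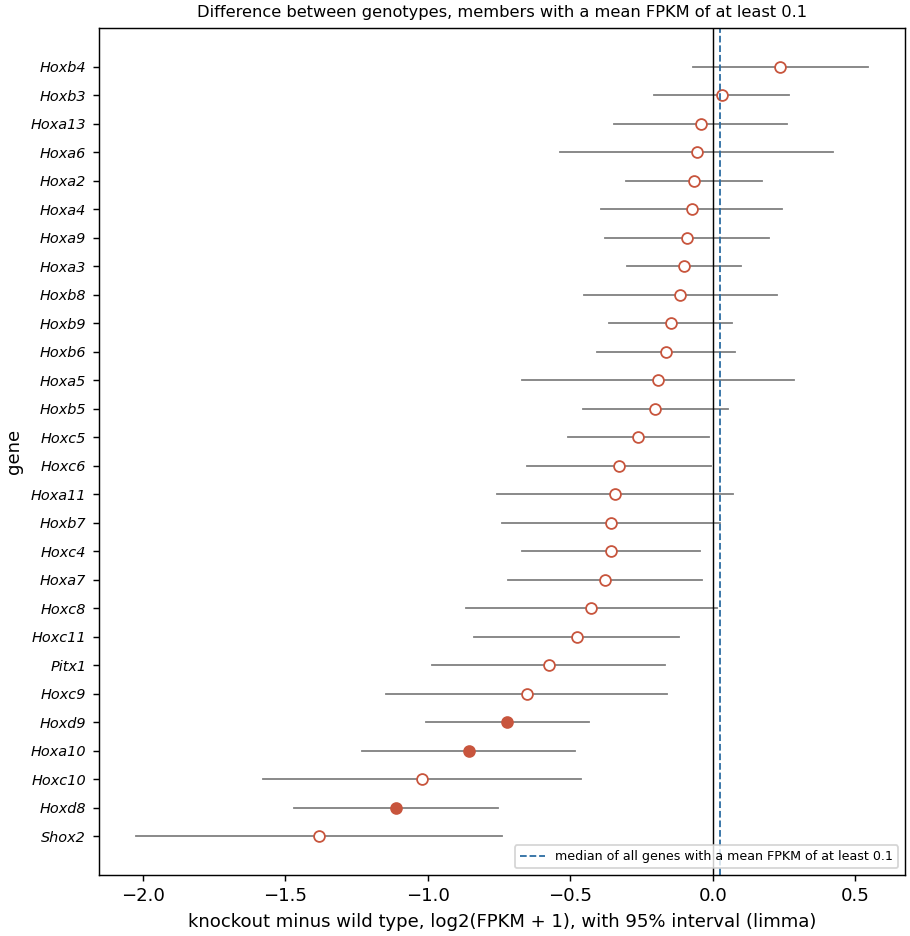
Difference of log2(FPKM + 1), knockout minus wild type, with 95% intervals from limma, for members with a mean of at least 0.1 FPKM, all but 1 of them shown. In this wider test the members past the adjusted threshold are Hoxa10, Hoxd8 and Hoxd9, and Hoxb4 lies above 0 with an interval that includes 0.

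Of the members under the test's level, 4 of the Hoxc cluster and 4 of the Hoxb cluster had separated groups, all with the lower values in the knockout. Hoxc6, which patterns the thorax and forelimb level, was at 0.907, 1.49 and 1.17 FPKM in wild type and at 0.626, 0.739 and 0.840 in knockout. Hoxc11, a gene of the lumbosacral and hindlimb level, was at 0.937, 1.57 and 0.960 FPKM in wild type and at 0.388, 0.597 and 0.629 in knockout. In both genes every knockout library lay below every wild-type library. In the Hoxb cluster, Hoxb7 was at 0.912, 1.59 and 0.790 FPKM in wild type and at 0.547, 0.632 and 0.674 in knockout. Hoxb6 was at 0.816, 0.600 and 0.621 FPKM in wild type and at 0.522, 0.468 and 0.5002 in knockout. These trunk-level genes were separated too, opposite to Hoxb4 of the same cluster. In the Hoxa cluster, Hoxa6 was at 1.06, 0.293 and 0.761 FPKM in wild type and at 0.345, 0.789 and 0.727 in knockout. Hoxa11, needed for the middle limb segment, was at 0.531, 1.12 and 0.436 FPKM in wild type and at 0.185, 0.477 and 0.303 in knockout. Both overlapped, and 35.0% of the exon sequence of Hoxa11 is shared with the opposite-strand transcript Hoxa11os.

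The remaining members were at mean levels under 0.5 FPKM. Separated groups with lower knockout values were also seen in Hoxa3, Hoxb5, Hoxb9, Hoxc4 and Hoxc5. Overlapping groups were seen, among others, in Hoxa2, Hoxa4, Hoxb1, Hoxb2, Hoxb3, Hoxb8, Hoxc8 and Hoxc12, of which Hoxb3 shares 52.9% of its exon sequence with the opposite-strand transcript Hoxb3os. Over all 43 members, 18 had every knockout library below every wild-type library and 1, Hoxb4, had the opposite. Of the 29615 genes with a value above 0, 11.2% were separated downward and 9% upward. Among the 29 members with a mean of at least 0.1 FPKM, 17 were separated downward, where 14.1% of all 20827 such genes were. The knockout mean lay below the wild-type mean in 35 members and above it in 4, among them Hoxb3, Hoxb4 and Hoxd4. Over all genes with a value above 0 the knockout mean was the lower one in 48.2%, and in 45.8% of those with a mean of at least 0.1 FPKM.

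By paralog group, separation downward was seen in 1 of 8 genes of groups 1 to 3, in 8 of 15 genes of groups 4 to 8 and in 7 of 16 genes of groups 9 to 13. By cluster it was seen in 3 of 11 Hoxa, 4 of 10 Hoxb, 6 of 9 Hoxc and 3 of 9 Hoxd genes, and in 2 of the 4 limb factors. A mean of at least 0.1 FPKM was reached by 4, 14 and 9 genes of these paralog groups, and by 11 Hoxa, 7 Hoxb, 7 Hoxc and 2 Hoxd genes. Genes at 0 in every library cannot separate, so these shares cannot be compared without regard to level. Of all genes with a value above 0, 11.2% were separated downward. Differences between paralog groups or between clusters were not tested. The median log2 difference over the 29 members was -0.26, beside 0.03 over all genes of that level. Of the 29, 19 had their highest wild-type value in replicate 2, where 38.4% of all genes did, and 17 had their lowest in replicate 3. Over all members, 18 were separated downward with all libraries and 20 without wild-type replicate 2 and knockout replicate 1. Groups of fewer libraries separate more easily. With quantile normalization the count was 13. The share of all genes separated was not counted without those libraries or after quantile normalization, so the counts of 20 and 13 have no such share beside them. The part of wild-type replicate 3 in the separated groups was not tested.

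Summed over its genes, the Hoxd cluster stood at 0.763, 0.341 and 0.443 FPKM in the knockout libraries and at 2.50, 3.42 and 3.08 in wild type, a mean of 17.2% of wild type. The Hoxc sum was at 3.70, 4.14 and 4.90 against 9.94, 14.03 and 7.14 FPKM, or 40.9%. These sums did not overlap between the groups. The Hoxa sum was at 8.12, 8.49 and 8.51 against 12.8, 14.1 and 10.5 FPKM, or 67.2%, also without overlap. The Hoxb sum, of which Hoxb4 made up the largest share, was at 5.66, 5.32 and 6.09 against 6.23, 6.89 and 5.14 FPKM, or 93.5%, and overlapped.

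Summed RNA of DNA-binding partners of Hox proteins was at 105.1 to 110.3% of the wild-type mean in knockout, beside 96.0 to 104.8% in wild type. Of the 9 TALE homeodomain genes (Pbx, Meis and Pknox), 6 were tested, and limma called 0 lower and 0 higher (1 lower and 0 higher at an unadjusted p under 0.05, and 0 in either direction by voom). Their median log2 difference was 0.05, beside 0.06 over all genes tested. Pbx2, the one with the highest level, was at 22.0 ± 1.86 FPKM in wild type and 24.7 ± 2.08 in knockout (SD, n = 3). The largest difference among the tested ones was that of Meis3, at 2.21 ± 0.628 and 1.21 ± 0.104 FPKM (SD, n = 3; log2 difference -0.52, limma adjusted p = 0.141). Meis3 was separated downward, 1 of the 9, where 11.2% of all genes with a value above 0 were, and 0 of the 9 were separated upward. Of 16 Polycomb and trithorax regulators, which hold Hox clusters silent or active, limma called 0 (0 lower and 1 higher at an unadjusted p under 0.05, and 0 by voom), with a median log2 difference of 0.07.

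Several other patterning factors of the skeleton fell. Of 28 limb and skeletal patterning genes 8 were tested, 4 fell and 0 rose in limma, where 3.82% of all genes were called lower, and 22 of the 28 were separated downward, as were 11.2% of all genes with a value above 0. Prrx1, which marks limb and skeletal mesenchyme, fell from 3.57 ± 0.563 to 1.53 ± 0.253 FPKM (SD, n = 3; log2 difference -0.85, limma adjusted p = 0.0283). Hic1 and Tbx15 were among the others that fell, with log2 differences of -0.98 and -1.09 (limma adjusted p = 0.0198 and 0.0357). Genes listed for other body regions were lower as well. Dlx3, of the head and branchial arch list, had a log2 difference of -1.14 (limma adjusted p = 0.0432, 1 of 3 tested in its list). Meox2, of the axial list, had one of -1.17 (limma adjusted p = 0.0326, 1 of 1 tested in its list). The head list is not particular to its region, as its member Dlx5 was also counted among the osteoblast markers.

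Summed marker levels of several cell types in bone were lower in the knockout too. Relative to the wild-type mean, the knockout libraries held 6.75 to 21.02% of the RNA of 14 chondrocyte markers, 12.6 to 23.7% of 8 adipocyte markers, 20.1 to 30.7% of 9 tendon and fascia markers, 28.2 to 59.2% of 15 osteoblast and osteocyte markers, and 37.6 to 58.9% of 10 skeletal muscle markers. Marker RNA of marrow stroma and periosteum was at 78.1 to 85.5%, of endothelium at 65.6 to 72.3%, of osteoclasts at 32.9 to 51.0%, of B cell precursors at 60.9 to 112% (wild type 88.3 to 109%) and of erythroid cells at 64.5 to 114% (wild type 66.2 to 139%), the last 2 sums overlapping between the groups. In each of these lists 0 markers were at 0 in all libraries. The stroma sum was led by Cxcl12, at a mean of 187 FPKM in wild type and 149 in knockout, so it says little about low-level markers. Of the 10 stroma markers, 6 were separated downward and 0 upward. Prrx1 was both in the stroma list and in the list of limb and skeletal patterning genes. In limma 11 of 12 chondrocyte, 8 of 8 tendon, 7 of 7 adipocyte, 5 of 15 osteoblast, 4 of 10 muscle, 3 of 10 stroma, 2 of 7 endothelial, 2 of 8 B cell precursor (Vpreb1 and Igll1) and 1 of 7 osteoclast markers fell, and 0 of each list rose. Over all genes tested, 3.82% were called lower and 1.34% higher. Of 7 erythroid markers 0 passed in either direction, 0 were at an unadjusted p under 0.05 in limma and 0 passed by voom. Blood stem and progenitor markers were at 91.9 to 96.8%, within the wild-type range of 91.0 to 105%. Of 13 tested, 1 rose, the progenitor factor Gfi1, from 9.38 ± 0.252 to 16.8 ± 0.792 FPKM (SD, n = 3; log2 difference 0.78, limma adjusted p = 0.0148). Others had lower knockout values without passing: 5 of the 16, namely Ly6a, Cd34, Msi2, Gata2 and Mllt3, were separated downward, and 2 were separated upward. Among all genes with a value above 0, 11.2% were separated downward and 9% upward. Ly6a, the marker of this list with the highest level, was at 42.9 ± 11.9 and 27.5 ± 0.594 FPKM (SD, n = 3; log2 difference -0.59, limma adjusted p = 0.149). Neutrophil precursor markers were at 120 to 157% of the wild-type mean, beside a wild-type range of 70.6 to 124%, and 4 of 10 rose. This sum was led by Ngp and Camp, at 3930 and 3049 FPKM in wild type and 4947 and 3084 in knockout, whose groups overlapped. Of the 10 markers, 7 were separated upward and 0 downward. The part of these cell types in the Hox results was not tested.

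**Figure D4:**
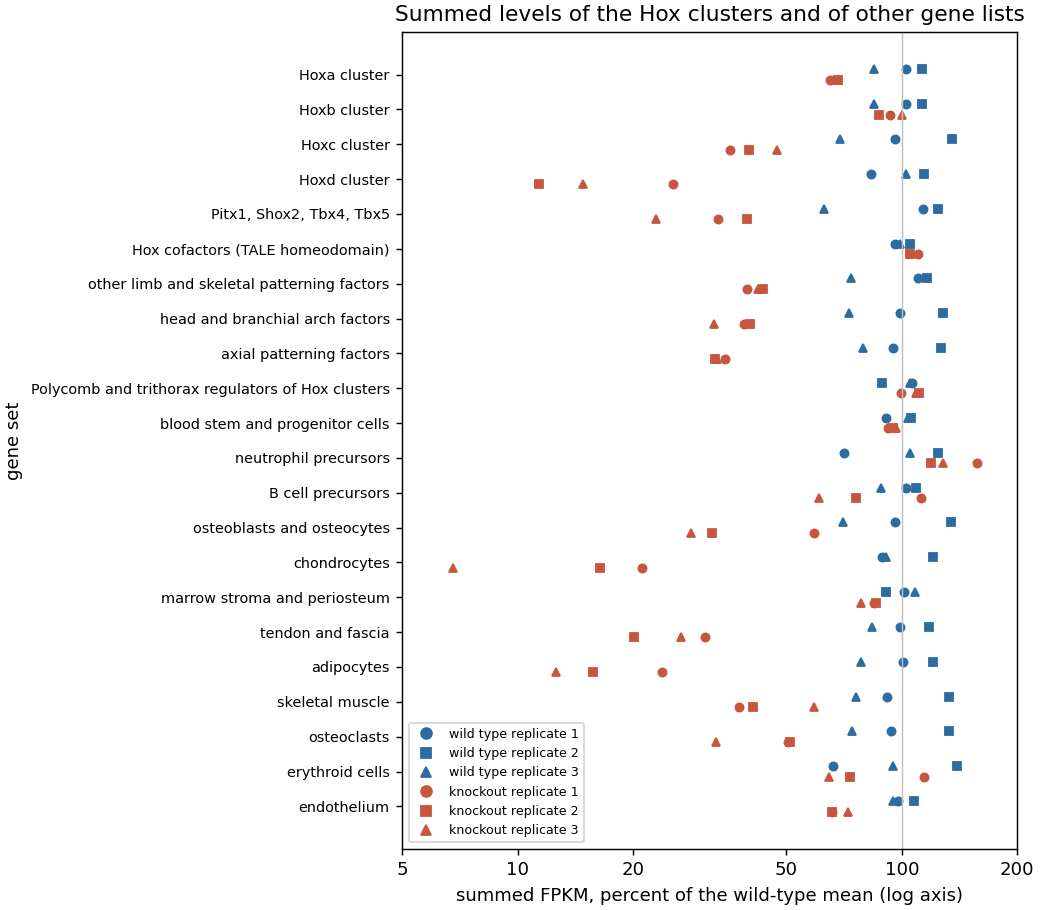
Summed FPKM of each gene set as a percent of its wild-type mean (log axis), 1 point per library. Knockout points of the Hoxd, Hoxc and limb factor sums lie between 11.4 and 47.3%, and those of the Hoxa sum between 65.1 and 68.3%, and the Hoxb, cofactor and blood stem sums lie between 87.4 and 110% in the knockout.

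To set members beside a general marker of skeletal mesenchyme, each level was also divided by that of Prrx1 in the same library. The measure and its members were chosen after the values were seen, and the ratios are given without a test. Shox2 then stood at 1.95 ± 0.444 in wild type and 1.40 ± 0.581 in knockout (SD, n = 3), Hoxa10 at 1.09 ± 0.0842 and 1.13 ± 0.254, and Hoxc10 at 1.26 ± 0.247 and 1.11 ± 0.147. For these genes, Hoxc9 and Pitx1 the groups overlapped. Hoxd8 stood at 0.579 ± 0.0817 and 0.284 ± 0.142, and Hoxd9 at 0.234 ± 0.0948 and 0.0636 ± 0.0567, and both were separated downward. Of the 13619 genes with a mean of at least 1 FPKM, Hoxd8 among them, 1.25% were. The ratios of Hoxb4, 0.841 ± 0.0862 and 2.44 ± 0.303, and of Hoxa9, 0.478 ± 0.0674 and 1.03 ± 0.301, were separated upward, as were those of 85.2% of genes, since Prrx1 itself fell. Hoxd8 and Hoxd9 were thus lower by more than Prrx1 was, while Hoxa10, Hoxc10, Hoxc9 and Pitx1 had ratios that differed by less than the spread between libraries. The tendon and fascia, adipocyte and chondrocyte sums had knockout means of 25.8, 17.3 and 14.7% of wild type. Levels relative to those markers were not tested.

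**Figure D5:**
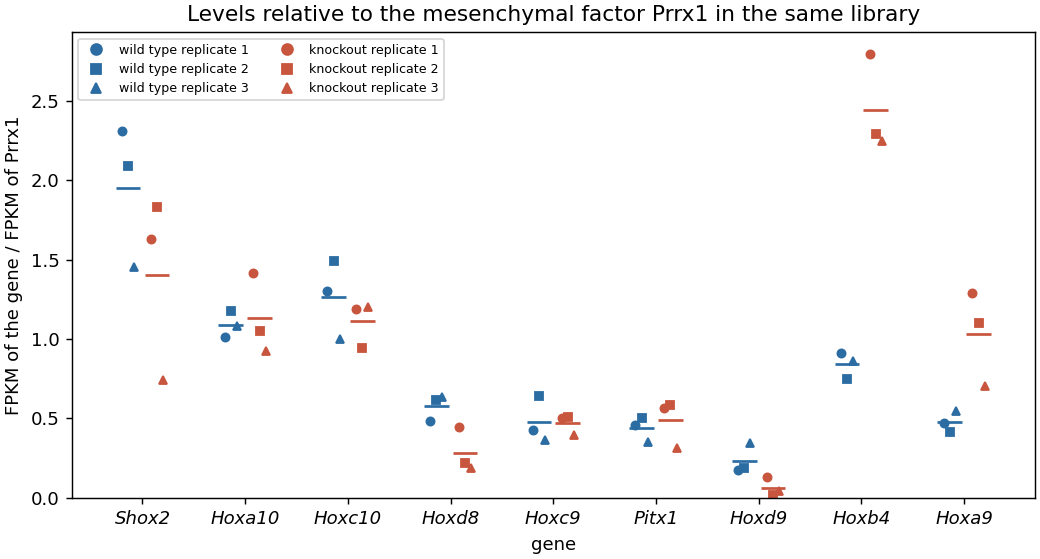
FPKM of 9 members divided by the FPKM of Prrx1 in the same library (linear axis from 0), 1 point per library and a dash at each group's mean. Hoxd8 and Hoxd9 are lower in all knockout libraries, Hoxb4 and Hoxa9 are higher, and the other members overlap.

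Within the spans of the 4 Hox clusters, 43 noncoding genes were annotated, of which 21 were listed at 0 in all libraries and 2 had a mean of at least 1 FPKM. Hotairm1, a noncoding transcript of the Hoxa cluster that is known from myeloid cells, was at 1.71, 1.30 and 1.73 FPKM in wild type and at 1.77, 1.46 and 0.958 in knockout, and the groups overlapped. Gm27477, which is 143 bases long and lies next to it, had 2 to 11 reads per library, too few for a comparison.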

How the data were processed

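RNA of bone was profiled in 6 libraries, 3 per genotype, built per the labels' protocols from total RNA with a TruSeq kit. The authors deposited FPKM values per gene. Bowtie 0.12.2 and mm10 are named in the submitters' processing notes, and the counter, annotation, strand use and scaling were not given in the sources used here. Among 54532 gene identifiers, 54495 matched GENCODE M21, which gave names, coordinates and exon lengths. FPKM times exon length gave whole reads (tolerance 0.01) for 96.9% of 29600 genes. Counting error alone is covered by read numbers and by ratios against a count of 0, which take the wild-type reads as exact.

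Values were analysed as log2(FPKM + 1), which understates changes of low genes. Genes with a mean of at least 1 FPKM were fitted on all 6 libraries with limma 3.58.1 (R 4.3.3, variance trend on expression), with Benjamini-Hochberg adjustment over all genes and a threshold of 0.05. Every adjusted p-value is from limma. On simulated data (12813 genes, dispersion 0.024) 14% of 1.5-fold, 78% of 2-fold and 96% of 4-fold changes were recovered, with 9 of 151 calls false. All genes were drawn with the same dispersion and without libraries that stood apart. These shares need not hold for members of low level or wider spread. Members under the level were described by their values. The members and gene lists were chosen with earlier results of these data known. Named in each library were the tested members, the 4 limb factors and the 2 highest of the rest per cluster, and in other lists the genes called or with the smallest p and the highest one. The values of 1 member and of 1 called list gene are not reported here, and some list genes were left out for brevity. Alternatives covered pseudocount, filter, scaling, variance model, library weights, the replicate block, recovered reads (voom) and left-out libraries. The voom fit on genes with a mean of at least 10 reads was added after seeing the data. Replicate numbers did not pair the libraries.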

Additional observations from a re-analysis of the deposited data

How the results depend on the processing

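Of 10 tested members, 3 were called lower. This count was 3 with a pseudocount of 0.1 or 0.5, with median-of-ratios rescaling, without the variance trend, with the filter at 0.1 FPKM and with voom on recovered reads. It was 2 with quantile normalization, 5 with library weights and 5 with voom on genes with at least 10 reads (Hoxa10, Hoxc10, Hoxd8, Hoxd9 and Shox2). It was 0 without a filter on low values, where more genes were tested (11 members at an unadjusted p under 0.05 in limma). Leaving out 1 library gave 0 to 4 members. It was 0 without knockout replicate 2 or 3 or wild-type replicate 1 or 2 (6 members at an unadjusted p under 0.05 in each), 1 without knockout replicate 1 and 4 when wild-type replicate 3 was left out. With wild-type replicate 2 and knockout replicate 1 both left out it was 0, with 4 members at an unadjusted p under 0.05. Of all genes tested, 5.16% were called in either direction with the settings used above and 5.37% with quantile normalization. Library weights gave 24.6%, and voom on genes with at least 10 reads gave 7.5%. The share was 0.483% without a filter, 0.455 to 3.07% with 1 library left out and 1.75% without both. Shares of all genes at an unadjusted p were not counted for these alternatives.

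Over all genes limma called 703. The count was 3354 with library weights, 143 without a filter, 1182 with voom on genes with at least 10 reads, 62 to 418 with 1 library left out and 239 without both libraries that stood apart. With the replicate block, 127 genes and 1 member (Shox2) passed. Same-numbered libraries deviated with correlations of -0.493, -0.27 and 0.158, so the numbers were not taken as pairs. The direction of Hoxa5 turned with library weights (log2 difference 0.0122) and that of Hoxa9 with quantile normalization (0.0125). The other 8 tested members kept their direction in all settings run. The cause of these shifts was not tested, beyond fewer libraries or more genes. Depth limits members under 0.1 FPKM, which rest on few reads.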
